A study of Mus musculus with 8 samples.

Results

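Claudins are the membrane proteins that give tight junctions their selectivity, and 10 of their genes were followed here in RNA-seq libraries of the embryonic mouse lung. The members Cldn1, Cldn3, Cldn4, Cldn5, Cldn6, Cldn7, Cldn8, Cldn10, Cldn18 and Cldn23 were taken by symbol from 24487 gene records, and each symbol had a single record. The 8 libraries all came from C57BL/6 embryonic lung. In translating ribosome affinity purification (TRAP), ribosomes of a labelled cell type are pulled down and the mRNA on them is sequenced. A TRAP library thus reports ribosome-bound mRNA of the labelled cells, and whole lung reports all cells without a pulldown. Here labelling was switched on with tamoxifen, the pulldown was through the ribosomal protein L10, and the series names the labelled cells Sox9 progenitors. The wild type was sequenced at embryonic days 14 and 17 (E14, E17) as TRAP and as whole lung, a single library each. At E16 there were 2 TRAP libraries for each genotype, wild type and Sox9 mutant. The E16 titles also carry E13, which is not explained, and the series design calls the E14 reference a supernatant where its label says whole lung homogenate. The driver of the labelling, the mutant allele, and how many embryos were pooled are not given in the sources used here, so the p-values below measure the spread between libraries only, which may be technical.

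Tight junctions seal the space between neighbouring epithelial or endothelial cells. Each claudin spans the membrane, and its extracellular loops meet those of claudins on the next cell, where some kinds tighten the barrier and others form pores for ions. In the lung this seal separates the fluid-filled airspaces of the fetus from the tissue, and the set of claudins differs between airway epithelium, alveolar epithelium and vessels. CLDN5 is best known as the claudin of endothelium, CLDN18 as that of the alveolar epithelium, and CLDN6 as one of embryonic epithelia.

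Promoter windows are shown for 4 members, chosen for the size of their differences or for their place. Cldn10, the abundant member that differed most in the mutant, and Cldn18, the member that differed most between stages, each have 2 RefSeq start sites, and the deposited value does not separate them. Cldn3 and Cldn4 are neighbours on chromosome 5, with 39279 bases between the records. Each window is the 250 bases before a RefSeq start on build GRCm38.p6 (the assembly of mm10), read 5′ to 3′ on the gene's strand. Capitals mark the letters ACAANG or their reverse complement CNTTGT, a loose form of the core recognised by SOX proteins. N is any base here, so a match such as ACAACG need not be that core.
Cldn10 first start, chr14:118787621-118787870, plus strand: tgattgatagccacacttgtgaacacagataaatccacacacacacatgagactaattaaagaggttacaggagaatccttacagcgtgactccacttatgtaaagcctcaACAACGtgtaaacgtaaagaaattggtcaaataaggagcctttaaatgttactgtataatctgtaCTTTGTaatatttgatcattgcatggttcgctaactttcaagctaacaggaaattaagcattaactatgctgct
Cldn10 second start, chr14:118854700-118854949, plus strand: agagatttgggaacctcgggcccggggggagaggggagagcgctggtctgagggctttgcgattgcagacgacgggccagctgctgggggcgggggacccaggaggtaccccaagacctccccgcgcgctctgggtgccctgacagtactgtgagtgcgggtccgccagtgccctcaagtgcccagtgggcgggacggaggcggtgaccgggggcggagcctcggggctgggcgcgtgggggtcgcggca
Cldn18 first start, chr9:99717268-99717517, minus strand: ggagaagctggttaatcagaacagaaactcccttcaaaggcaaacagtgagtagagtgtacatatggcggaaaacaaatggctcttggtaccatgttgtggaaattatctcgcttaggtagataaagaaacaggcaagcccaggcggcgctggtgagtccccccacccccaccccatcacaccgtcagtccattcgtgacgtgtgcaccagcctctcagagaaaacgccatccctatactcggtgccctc
Cldn18 second start, chr9:99710064-99710313, minus strand: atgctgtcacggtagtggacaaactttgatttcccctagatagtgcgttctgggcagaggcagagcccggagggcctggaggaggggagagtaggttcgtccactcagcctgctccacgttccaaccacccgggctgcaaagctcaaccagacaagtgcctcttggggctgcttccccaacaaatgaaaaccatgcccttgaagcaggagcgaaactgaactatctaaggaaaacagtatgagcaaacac
Cldn4, chr5:134946935-134947184, minus strand: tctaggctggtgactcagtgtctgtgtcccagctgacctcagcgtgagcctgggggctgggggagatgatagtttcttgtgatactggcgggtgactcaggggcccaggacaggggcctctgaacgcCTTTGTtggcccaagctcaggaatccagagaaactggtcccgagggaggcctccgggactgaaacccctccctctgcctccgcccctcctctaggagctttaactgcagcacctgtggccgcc
Cldn3, chr5:134985964-134986213, plus strand: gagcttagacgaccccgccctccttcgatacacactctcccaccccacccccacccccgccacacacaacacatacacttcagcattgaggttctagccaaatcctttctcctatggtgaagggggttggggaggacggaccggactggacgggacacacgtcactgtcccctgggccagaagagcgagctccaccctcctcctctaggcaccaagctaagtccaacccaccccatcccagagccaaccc

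RefSeq gave 11 such windows for 8 of the 10 members. The SOX letters occurred in 3 of the 11 (the first start of Cldn10, and Cldn4 and Cldn1), while 36.3% of 32851 windows of the same length over all genes held them on either strand. The letters CAAGTG (reverse CACTTG), a core bound by NKX2 factors, occurred in 5 of the 11 against 11.6% of all windows. These were both starts of Cldn10, the second starts of Cldn18 and Cldn7, and Cldn1. The E-box CAGGTG (reverse CACCTG) occurred in 3 of the 11 against 17.2% of all. AACCNGGTT, the letters of grainyhead-like factors of epithelia, occurred in 0 of the 11 against 0.240% of all. No matches of different motifs overlapped, and a match is a description of the letters only.

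Sox9 itself was read first. Its level was 35.9 and 36.4 FPKM in the wild-type E16 libraries and 12.8 and 11.03 FPKM in the mutant libraries, which go with the labels. FPKM divides a gene's fragments by its length and by the library's mapped fragments, which allows levels of different genes to be compared. Between 9783770 and 21500500 fragments lay behind a library, as inferred from the deposited confidence bounds. Wild-type E16 replicate 1 stood apart by its FPKM total, of which the short record Mir762 held 50.05%, as it did 33.95% of that of E17 TRAP. Leaving out that wild-type replicate ended the mutant call of Cldn6, given below, and of no other member. All 12 genes of a pan-epithelial list were higher in TRAP, and all 14 endothelial and all 10 mesenchymal genes were lower.

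In the labelled cells claudin mRNA was held by 6 genes. In E14 TRAP the order was Cldn6 (451 FPKM), Cldn3 (245), Cldn7 (205), Cldn4 (99.9), Cldn18 (77.6), Cldn10 (35.1) and Cldn5 (11.1). The confidence bounds of neighbours in this order did not overlap. Cldn23, Cldn1 and Cldn8 followed at 0.523, 0.234 and 0.146 FPKM, where the bounds of neighbours overlapped and the values rested on 11, 9 and 4 fragments. In E17 TRAP Cldn3 led with 484 FPKM. Cldn18 (312 FPKM) and Cldn6 (312 FPKM) followed with overlapping bounds, then Cldn7 (278), Cldn4 (68.7), Cldn10 (41.04) and Cldn5 (14.1). Whole lung at E14 was led by Cldn6 (106.6 FPKM), but Cldn5 came second there with 68.7 FPKM. At E17 Cldn3 (166.7 FPKM) led in whole lung too, with Cldn18 (117), Cldn6 (109.8) and Cldn5 (108) next to each other with bounds that overlapped between neighbours.

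**Figure D1:**
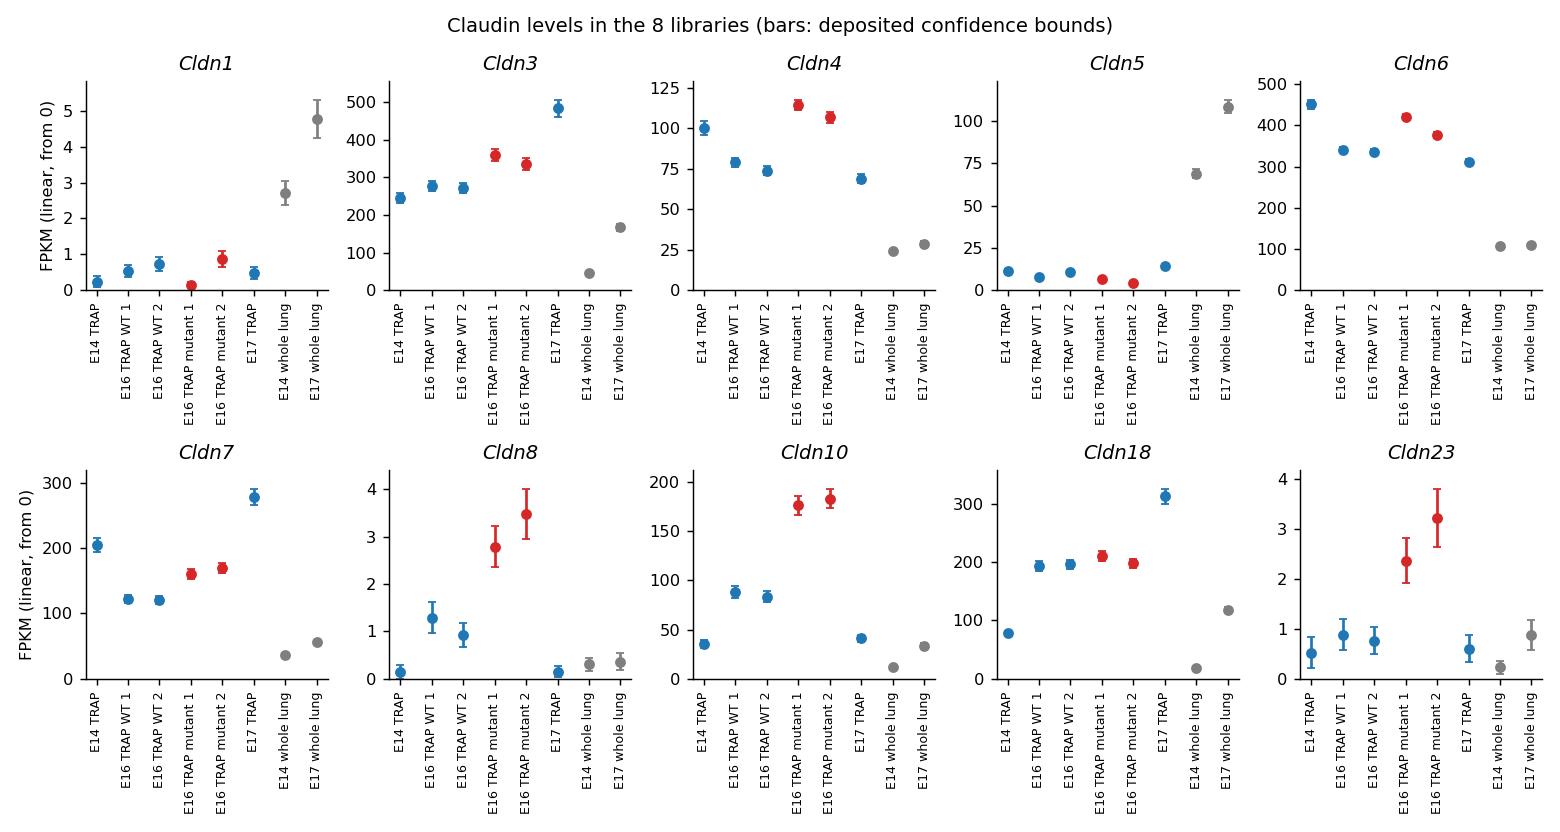
FPKM of each of the 10 claudins in the 8 libraries, on linear axes that start at 0 and differ between panels; points are single libraries (blue wild-type TRAP with WT for wild type, red Sox9 mutant TRAP, grey whole lung) and bars are the deposited confidence bounds. Cldn5 and Cldn1 are high in the grey whole lung libraries, and Cldn18 reaches 312 FPKM in E17 TRAP from 77.6 FPKM at E14.

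The make-up of the claudin pool, as each member's share of the summed FPKM of the 10, does not depend on how a library was scaled. Cldn6 held 40.1% of the pool in E14 TRAP, 30.7% in both E16 wild-type libraries and 20.6% in E17 TRAP, and in whole lung 33.6% at E14 and 17.5% at E17. Cldn18 held 6.89% in E14 TRAP, 17.4% and 17.9% at E16 and 20.7% at E17, and 6.00% and 18.7% in whole lung. The share of the embryonic claudin was thus lower, and that of the alveolar claudin higher, at E17 than at E14 in both fractions. Cldn3 held 21.8% and 32.01% in TRAP and 14.6% and 26.6% in whole lung at E14 and E17. Cldn5 held 21.7% and 17.3% of the whole lung pool but 0.982% and 0.934% of the TRAP pool. These shares are descriptions of single libraries and carry no test.

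**Figure D2:**
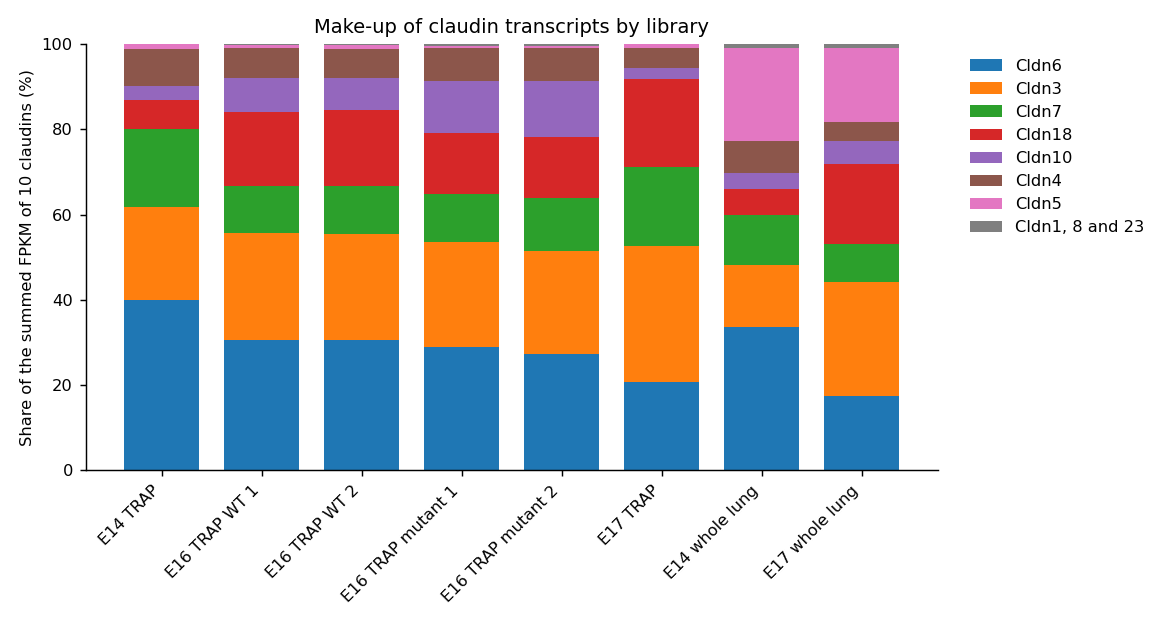
Share of the summed FPKM of the 10 claudins held by each member, in percent (bars from 0 to 100, 1 bar per library). Blue Cldn6 shrinks from 40.1% in E14 TRAP to 20.6% in E17 TRAP while red Cldn18 grows from 6.89% to 20.7%, and pink Cldn5 is wide only in the whole lung bars.

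Setting TRAP against whole lung asks which claudin mRNAs are higher on the ribosomes of the labelled cells than in the organ. Epithelial claudins were higher in TRAP, and Cldn5 and Cldn1 were lower. Values were tested with limma on log2(FPKM + 1) in 1 fit of both stages, with Benjamini-Hochberg adjustment over all records. With a single library for each stage and fraction, these p-values rest on how far the stages disagree on the difference, and not on a spread between replicates. Limma also draws each gene's spread towards that of all records, here with 4.466 prior against 1 residual degree of freedom. An SE can thus be smaller than the gene's own disagreement gives. Of the 8 members past a filter of 1 FPKM on the mean, 5 were higher, 2 were lower and Cldn10 did not pass. Of all 12320 records in the fit, 23.6% passed as higher and 17.1% as lower. The median log2 difference was 1.65 over the 8 members and 0.05 over all records. Cldn1 passed the filter only through its whole lung values, so its difference was in part set by that choice. Fewer cells of a type and less RNA per cell cannot be told apart in such libraries. Nor can ribosome loading, carry-over in the pulldown and library preparation, which also differ between TRAP and whole lung.

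For Cldn7, a claudin of the lateral membrane of many epithelia, TRAP gave 205 FPKM at E14 and 278 at E17, where whole lung gave 37.2 and 56.3. On the deposited FPKM it was the most enriched member, with 5.52-fold and 4.94-fold ratios of FPKM at the 2 stages (log2 2.36 on FPKM + 1, SE 0.10, adjusted p = 0.000345). For Cldn3, a barrier-tightening claudin, TRAP gave 245 and 484 FPKM and whole lung 46.4 and 166.7 (difference 1.95, SE 0.20, adjusted p = 0.00209). Both were higher in TRAP at each stage, but the ratio for Cldn3 was 5.28 at E14 and 2.90 at E17. For Cldn6 they were 451 and 312 FPKM in TRAP and 106.6 and 109.8 in whole lung (difference 1.78, SE 0.15, adjusted p = 0.00131). For Cldn18 they were 77.6 and 312 FPKM in TRAP and 19.02 and 117 in whole lung (difference 1.69, SE 0.15, adjusted p = 0.00143). Cldn4, which tightens epithelia against sodium, gave 99.9 and 68.7 FPKM in TRAP and 24.3 and 28.4 in whole lung (difference 1.62, SE 0.19, adjusted p = 0.00278). These 3 genes also had smaller ratios at E17 than at E14, namely 2.84 against 4.23 for Cldn6, 2.67 against 4.08 for Cldn18 and 2.42 against 4.11 for Cldn4. Limma-voom put Cldn6 (1.64) and Cldn4 (1.53) above Cldn7 (1.52), and gave Cldn3 as 1.07 and Cldn18 as 0.95, on fragments that are not reliable for Cldn3, Cldn7 and Cldn18; all 5 passed. With 1 library for each stage and fraction, whether enrichment differed between stages could not be tested.

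Cldn10, whose protein forms ion channels between cells, stood between the groups. TRAP and whole lung gave 35.1 and 11.6 FPKM at E14, but 41.04 and 33.3 at E17. The ratio was 3.02 at E14 and 1.23 at E17, and the joint difference of 0.91 (SE 0.28) did not pass (adjusted p = 0.0502). It passed when libraries were rescaled to a common total without records under 200 bases (log2 0.82, adjusted p = 0.0235). The summed level of 11 proximal airway genes was 236 FPKM at E14 and 576 at E17 in whole lung, and 514 and 361 in TRAP. By limma 0 of 7 tested passed between fractions, and between stages 0 were higher and 1 was lower (Sox2, -0.93). Between 1 and 2 of those genes were at 0 in each of the 4 libraries, and their part in the result was not tested.

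Cldn5 went the other way. TRAP gave 11.1 FPKM at E14 and 14.1 at E17, where whole lung gave 68.7 and 108 (difference -2.69 on the log2 scale, SE 0.12, adjusted p = 0.000393). Its whole lung level was 6.22 times and 7.68 times the TRAP level. The 14 endothelial genes summed to 84.0 and 152 FPKM in TRAP and to 400 and 767 FPKM in whole lung, with 0 of the 14 at 0 in any library. Their part in the remaining Cldn5 of the TRAP libraries was not tested. Cldn1, the claudin of the epidermal barrier, was low everywhere, at 0.234 and 0.470 FPKM in TRAP and 2.72 and 4.77 in whole lung (difference -1.78 on the log2 scale, SE 0.21, adjusted p = 0.00301). Cldn8 and Cldn23 were below the filter, with levels from 0.146 to 0.872 FPKM in these 4 libraries. In both stages the bounds of TRAP and whole lung overlapped for each of them.

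Set against epithelial genes, most of the enrichment was shared. The mean log2 level of the 12 pan-epithelial genes was 1.58 higher in TRAP, a scale chosen after the values had been seen and given without a test. Relative to that mean, Cldn7 was still 0.78 higher in TRAP and Cldn3 0.37, while Cldn6 (0.20), Cldn18 (0.11) and Cldn4 (0.04) lay close to it. The direction of the uncalled Cldn10 turned (-0.67), and Cldn5 was at -4.27 and Cldn1 at -3.36. The FPKM of Cldn3, Cldn4, Cldn6, Cldn7, Cldn10 and Cldn18 together came to 49.8 and 58.9 per 100 FPKM of the list in TRAP at E14 and E17, and to 49.5 and 53.4 in whole lung.

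**Figure D3:**
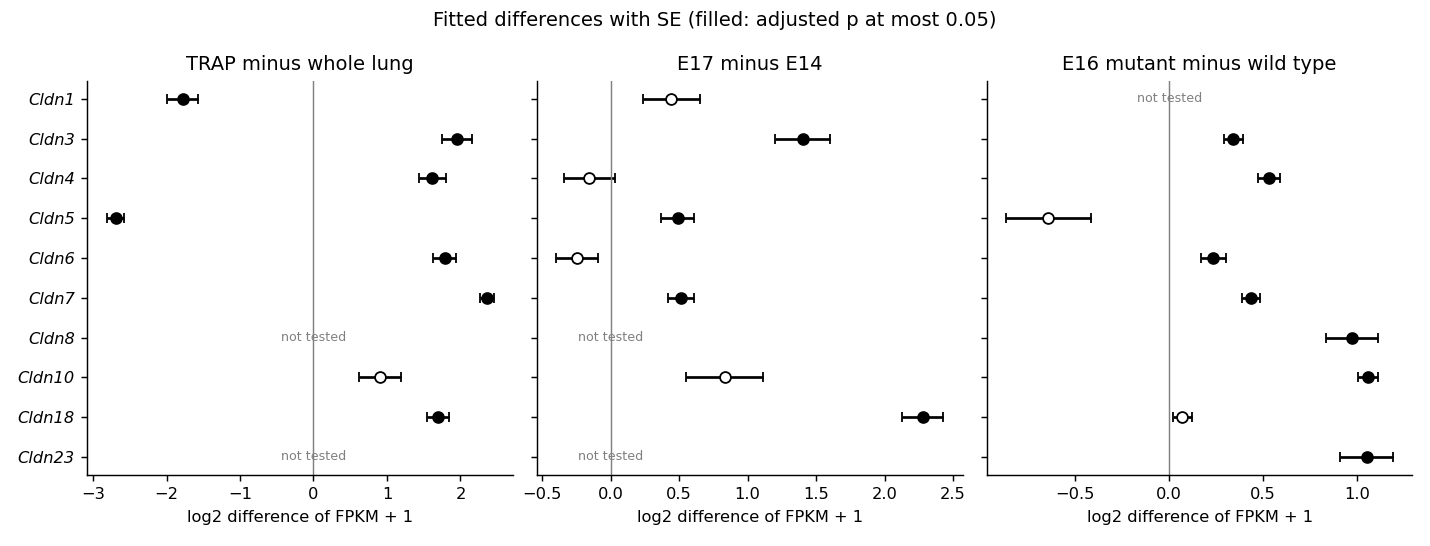
Fitted log2 differences of FPKM + 1 for each member (points, with SE as bars) in TRAP minus whole lung, E17 minus E14, and E16 mutant minus wild type; filled points have an adjusted p of at most 0.05 and the x axes differ. In the first panel 5 members lie right of 0 as filled points and Cldn1 and Cldn5 left of it, and Cldn18 reaches 2.28 between stages.

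Setting E17 against E14 asks which claudins change late in lung development. Among the members past the filter, Cldn18 and Cldn3 rose most. In the same fit, with the fraction as the other term, 4 of the 8 members past the filter were higher at E17 and 0 were lower, against 9.51% and 6.36% of all records. At an unadjusted p under 0.05 there were 5 higher and 0 lower. Limma-voom on fragments inferred from the bounds called 0 members in either direction, and 1018 of 12320 records higher and 563 lower. The p-values here rest on how far TRAP and whole lung disagree on the stage difference, again drawn towards the spread of all records. With no filter on low values 0 members passed, with 4 higher at an unadjusted p under 0.05. Of all 18365 records in that fit only 49 passed as higher and 3 as lower, so 0 members is near the share of all records.

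Cldn18 rose from 77.6 to 312 FPKM in TRAP and from 19.02 to 117 FPKM in whole lung, 4.03-fold and 6.16-fold (log2 2.28, SE 0.15, adjusted p = 0.00285). On FPKM + 1 it was the only member past the filter that differed at least 2-fold within TRAP, where 4.55% of all records were that much higher; 0 members and 1.82% of records were that much lower. Cldn1, at 0.234 and 0.470 FPKM there, had a 2.01-fold ratio of FPKM with overlapping bounds. Cldn3 rose from 245 to 484 FPKM in TRAP, 1.97-fold, and from 46.4 to 166.7 FPKM in whole lung, 3.59-fold (log2 1.40, SE 0.20, adjusted p = 0.0181). Limma-voom gave 0.69 for Cldn18 (adjusted p = 0.127) and 0.44 for Cldn3 (adjusted p = 0.338), on fragments that are not reliable for either. Within whole lung Cldn18, Cldn3 and Cldn10 were at least 2-fold higher on FPKM + 1, as 4.67% of all records were, and 0 members and 1.23% of records were 2-fold lower. Cldn7 was 205 and 278 FPKM in TRAP and 37.2 and 56.3 in whole lung (log2 0.51, SE 0.10, adjusted p = 0.0290). Cldn5 was 11.1 and 14.1 FPKM in TRAP, with overlapping bounds, and 68.7 and 108 in whole lung (log2 0.49, SE 0.12, adjusted p = 0.0498). The mean of the pan-epithelial genes was itself 0.57 higher at E17. Relative to it the directions of Cldn7 (-0.06), Cldn5 (-0.08) and the uncalled Cldn1 (-0.12) turned. They were lower in whole lung only, as Cldn7 went from 0.45 to 0.13 there but from 0.96 to 1.17 in TRAP. These small values carry no test. Cldn5 and Cldn1 were lower in TRAP, where the pan-epithelial genes were higher, so this scale is not a check on them. Cldn18 (1.71) and Cldn3 (0.83) kept their directions. The Cldn5 call was also lost with a pseudocount of 0.1 (adjusted p = 0.0588), after centring on library medians (0.0681) and under a filter of 5 FPKM (0.0569). The 14 endothelial genes summed to 400 FPKM in whole lung at E14 and 767 at E17, and 10 of them passed the same test as higher; their part in the Cldn5 difference was not tested.

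Cldn6 and Cldn4 did not rise with the others. In TRAP Cldn6 was 451 FPKM at E14 and 312 at E17, and Cldn4 was 99.9 and 68.7 FPKM, ratios of 0.692 and 0.688. In whole lung Cldn6 was 106.6 and 109.8 FPKM with overlapping bounds, and Cldn4 was 24.3 and 28.4 FPKM. Neither passed in the joint fit (log2 -0.24 and -0.16, adjusted p = 0.311 and 0.597). Relative to the pan-epithelial mean both were lower at E17, at -0.81 for Cldn6 and -0.73 for Cldn4. Cldn10 was 35.1 and 41.04 FPKM in TRAP, with overlapping bounds, and 11.6 and 33.3 in whole lung (log2 0.83, SE 0.28, adjusted p = 0.101). It passed when libraries were rescaled without short records (0.76, adjusted p = 0.0493), which made 5 members higher. Cldn1 did not pass (0.44, adjusted p = 0.202). Below the filter, Cldn23 was 0.230 and 0.872 FPKM in whole lung, on 11.9 and 32.7 fragments, 3.79-fold with bounds that did not overlap. Its bounds overlapped in TRAP, and so did those of Cldn8 in both fractions. In the same fit 7 of 10 tested genes of alveolar type 1 cells and 8 of 10 of type 2 cells were higher at E17, and 0 were lower.

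The E16 wild-type TRAP libraries came from a separate set and were not tested against the other stages. For 4 members, Cldn3 (276 and 272 FPKM), Cldn4 (78.9 and 73.7), Cldn6 (339.8 and 336) and Cldn18 (193 and 196), both values lay between the E14 and E17 TRAP levels. Cldn7, at 122 and 121 FPKM, was below both of its flanking levels of 205 and 278. Cldn5, at 7.58 and 10.6 FPKM, was also below both, and Sox9 itself was below both of its flanking levels as well. Cldn10, at 88.2 and 83.6 FPKM, was above both of its flanking levels of 35.1 and 41.04, and so were Cldn8, Cldn1 and Cldn23 at between 0.538 and 1.29 FPKM.

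Setting the E16 mutant against the wild type asks which claudins differ in the labelled cells when Sox9 is mutated. Cldn10 was 2.09 times as high, the low Cldn8 and Cldn23 were 2.83 and 3.40 times as high, and Cldn18 did not pass. On the deposited scale 7 of the 9 members past the filter were higher and 0 were lower, against 17.4% and 14.3% of all 11872 records tested. Of those 7, Cldn23 passed the filter only through its mutant values. Cldn3 and Cldn6 turned to lower and Cldn7 came near level when set against pan-epithelial genes, as given below. Limma-voom called 5 of 9 members higher, and 2120 of 11872 records. A filter of 5 FPKM called 5 of the 7 members it left, and 1579 of 8612 records. Cldn5 had an unadjusted p under 0.05 as 1 lower member, and limma-voom called 0 members and 1418 records lower. The median log2 difference was 0.43 over the 9 members and 0.01 over all records. In 8 members both mutant values were above both wild-type values and in 1 both were below, as in 36.8% and 33.3% of all records.

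The wild-type libraries held Cldn10 at 88.2 and 83.6 FPKM and the mutant libraries at 176 and 183. Means were 85.9 ± 3.24 and 179.8 ± 4.96 FPKM (SD, n = 2 in each group). This difference of 1.06 on the log2 scale (SE 0.05) passed the test of limma with adjusted p = 0.000132. It passed in each of the 11 other settings tried, with log2 differences from 1.01 to 1.13 apart from limma-voom, which gave 0.54 on fragments that are not reliable for this gene. Its share of the claudin pool was 7.96% and 7.63% in the wild type and 12.1% and 13.3% in the mutant. The 11 proximal airway genes summed to 460 and 450.2 FPKM in wild-type libraries and 1607 and 1824 in the mutant, with 6 of 8 tested higher. At 0 were 0 of the 11 in the wild type and 2 and 0 in the mutant libraries, and their part in the Cldn10 difference was not tested.

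Cldn8 and Cldn23 had low levels. The wild-type mean of Cldn23, 0.819 ± 0.0887 FPKM, was below the filter, so it was tested only through its mutant values, while that of Cldn8 was 1.11 ± 0.261 FPKM. For Cldn8 the wild type gave 1.29 and 0.925 FPKM and the mutant 2.79 and 3.48, on 50.3 to 170.3 fragments (difference 0.97, SE 0.14, adjusted p = 0.00460). For Cldn23 the wild type gave 0.882 and 0.757 FPKM and the mutant 2.36 and 3.22, on 31.9 to 123.7 fragments (difference 1.05, SE 0.14, adjusted p = 0.00360). For both genes the wild-type and mutant values did not overlap, nor did their confidence bounds. The log2 scale with a pseudocount of 1 understates such low genes, and with 0.1 the differences were 1.43 and 1.64. Cldn1 was below the filter, at 0.538 and 0.735 FPKM in wild-type libraries and 0.144 and 0.877 in the mutant, which overlapped.

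The abundant barrier claudins were moderately higher on the deposited scale, and their direction depended on the scale for Cldn3 and Cldn6, and by little for Cldn7. Cldn4 was at 78.9 and 73.7 FPKM in wild-type and at 114 and 107 in mutant libraries (difference 0.53 on the log2 scale, SE 0.06, adjusted p = 0.00186). Cldn7 was at 122 and 121, then 160.3 and 169.6 FPKM (difference 0.43, SE 0.05, adjusted p = 0.00192). Cldn3 was at 276 and 272, then 359 and 336 FPKM (difference 0.34, SE 0.05, adjusted p = 0.00571). Cldn6, at 339.8 and 336, then 421 and 376 FPKM, was closest to the threshold (difference 0.24, SE 0.07, adjusted p = 0.0421). The groups did not overlap in any of these 4 genes, and the ratios of means lay between 1.18 for Cldn6 and 1.45 for Cldn4. The Cldn6 call was lost without wild-type replicate 1 (adjusted p = 0.130), without wild-type replicate 2 (0.166), without mutant replicate 1 (0.111), with centring (0.0941) and with no filter (0.0905). Limma-voom did not call Cldn3 (0.051, adjusted p = 0.659) or Cldn7 (0.21, adjusted p = 0.0773), on fragments that are not reliable for these genes.

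General epithelial mRNA was higher in the mutant libraries as well. The 12 pan-epithelial genes summed to 2129 and 2115 FPKM in wild-type libraries and to 2929 and 2849 in the mutant, with 9 of 12 higher and 1 lower by the same test. Their mean log2 level was 0.51 higher. Relative to it Cldn3 (-0.17) and Cldn6 (-0.27) were lower in the mutant and Cldn4 was level (0.02). Cldn7 (-0.07) was near level, at 0.057 and 0.177 in the mutant and 0.190 and 0.191 in the wild type. Cldn10 (0.55), Cldn23 (0.54) and Cldn8 (0.46) were still higher. A pseudocount of 1 understates the low Cldn23 and Cldn8, so their values are not ranked against that of Cldn10. The 10 mesenchymal genes summed to 275 and 345 FPKM in wild-type libraries and 177 and 235 in the mutant, with 0 of the 10 at 0. Of the 10, 2 were lower (Vim and Foxf1), 1 was higher (Dcn, 0.70) and 7 did not pass. The part of these genes in the claudin differences was not tested.

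**Figure D4:**
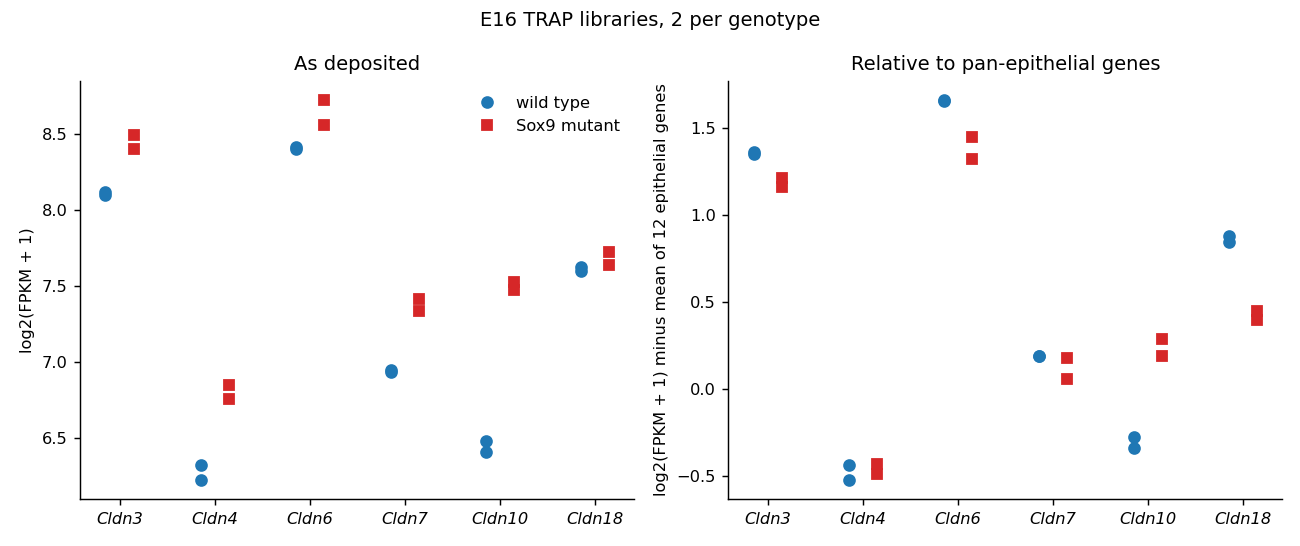
The 6 abundant claudins in the E16 TRAP libraries (blue circles wild type, red squares Sox9 mutant, 2 libraries each), on the left as log2(FPKM + 1) and on the right as the same value minus the mean log2 level of 12 pan-epithelial genes; neither axis starts at 0. On the left all 6 mutant pairs lie above the wild type, and on the right only Cldn10 is clearly above (0.55) while Cldn3 (-0.17), Cldn6 (-0.27), Cldn7 (-0.07) and Cldn18 (-0.44) lie below.

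Cldn18 was at 193 and 196 FPKM in wild-type and at 210.3 and 197 in mutant libraries (difference 0.07 on the log2 scale, SE 0.05, adjusted p = 0.349). A difference was thus not detected, while its share of the claudin pool was 17.4% and 17.9% in the wild type and 14.5% and 14.3% in the mutant, and relative to the pan-epithelial genes its direction turned (-0.44). Cldn18 has a lung and a stomach form from its separate starts, which these values do not separate. The 8 stomach genes of the list summed to 0.841 and 0.438 FPKM in wild-type libraries and 25.3 and 31.2 in the mutant. Of the 8, 4 were at 0 in the wild type and 3 in the mutant. Only 2 of the 8 passed the filter, through their mutant values alone. Both were called higher (Gkn2, log2 4.49, and Muc5ac, 1.70). The 10 alveolar type 2 genes summed to 4060 and 4716 FPKM in wild-type libraries and 1720 and 1431 in the mutant, but 6 of the 10 were higher and 2 lower (median log2 1.00). The surfactant gene Sftpc was at -4.60 and Sftpb at 2.91. The 11 type 1 genes summed to 953 and 1013 FPKM and to 702 and 614, with 4 of 10 tested higher and 3 lower (median log2 0.16). None of either list was at 0. The part of these lists was not tested.

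Cldn5 was at 7.58 and 10.6 FPKM in wild-type and at 6.82 and 4.21 in mutant libraries. Both mutant values were below the wild type, but the difference did not pass (log2 -0.64, SE 0.23, adjusted p = 0.0809). It passed without mutant replicate 1 (log2 -0.94, adjusted p = 0.0102), and over the 11 other settings the adjusted p ran from 0.0102 to 0.317. The 14 endothelial genes summed to 77.6 and 99.0 FPKM in wild-type libraries and to 65.3 and 51.7 in the mutant, with 3 of 10 tested lower and 0 higher. Wild-type replicate 2 had the highest and mutant replicate 2 the lowest level of both Cldn5 and this sum among the 4 libraries. Of this sum Egfl7 alone held 43.7 and 46.3 FPKM for wild-type replicates 1 and 2, and 30.9 and 26.8 for the mutant replicates. Mutant replicate 1 was above wild-type replicate 1 in Pecam1, Kdr, Tek, Plvap, Sox17 and Sox18, and below it in the others of the list. The part of the endothelial genes in the Cldn5 difference was not tested.

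Other claudins were scarce. Of 15 further records with a claudin symbol, Cldn25 and Cldn26 lie where RefSeq places Cldnd1 and Tmem114, which have other names there. Among the rest, Cldn12, an atypical member without the usual binding motif for junction scaffolds, was at 5.89 to 11.1 FPKM. Cldn9, 137 bases from Cldn6, was at 4.43 and 4.92 FPKM in wild-type and at 3.50 and 2.37 in mutant libraries (difference -0.54, SE 0.15, adjusted p = 0.0420), opposite in sign to its neighbour on the deposited scale. It was also higher in TRAP than in whole lung (log2 1.06, adjusted p = 0.00764), as was Cldn12 (0.44, adjusted p = 0.0466), while Cldn15, a pore-forming claudin, was lower (-1.27, adjusted p = 0.00938). Cldn15 was at 0.380 and 0.459 FPKM in TRAP and 2.91 and 2.01 in whole lung, and so passed the filter only through whole lung. Of the 15, 3 passed the filter in the mutant fit, with 1 lower, and 4 in the other fit, with 2 higher and 1 lower in TRAP and 0 called between stages by limma. Cldn14, Cldn16 and Cldn17 were listed at 0 in every library.

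Claudins are tied to the cell cortex by scaffold and polarity proteins and share the junction with other adhesion molecules. Of 23 listed symbols of tight junction genes, of which Inadl and Patj name the same gene, 22 were found. In TRAP against whole lung 17 of 22 were higher and 2 lower (median log2 0.82), led by Lsr (1.98), a receptor of junctions between 3 cells, the polarity gene Crb3 (2.31) and Pard6b (1.29). Between stages 4 of 22 were higher and 2 lower, with Ildr1 (1.09), F11r (0.66) and Tjp3 (1.16) up. In the mutant 12 of 21 were higher and 1 lower (median log2 0.21), with F11r, a junctional adhesion molecule, at 0.83, the scaffold Cgn at 1.14 and Ildr1 at 0.86. The shares of all records called in these comparisons were those given above.

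Records with the most similar profile were found as the smallest root mean square difference of log2(FPKM + 1) over the 8 libraries, each centred on its own mean, among 8505 records. Cldn6 was closest to Shh, the epithelial hedgehog ligand (0.10), and then to Cldn4 (0.14). Cldn4 was closest to Cldn6 (0.14) and Shh (0.14). These 2 claudins are thus each among the other's nearest records, although they lie on chromosomes 17 and 5. Cldn5 was closest to the endothelial genes Tie1 (0.20) and Esam (0.23). Cldn3 was closest to Tspan8 (0.18) and Slc15a2 (0.19), Cldn18 to Mal (0.25) and Sfta2 (0.31), Cldn10 to Reep6 (0.26) and Sfn (0.27), and Cldn7 to Pcsk6 and Bmp4 (both 0.29). Of the low members, Cldn1 was closest to Cxx1c (0.15) and Dact3 (0.18), Cldn8 to C1galt1 (0.17) and Gpr137b-ps (0.19), and Cldn23 to Acsl1 (0.14) and Ccdc71l (0.17).

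The records of the members on mm10 are Cldn1 at chr16:26356646-26371839, Cldn3 at chr5:134986214-134987476, Cldn4 at chr5:134945124-134946934, Cldn5 at chr16:18776847-18778262, Cldn6 at chr17:23679365-23682446, Cldn7 at chr11:69964779-69967886, Cldn8 at chr16:88560826-88563183, Cldn10 at chr14:118787871-118874525, Cldn18 at chr9:99690797-99717267 and Cldn23 at chr8:35824709-35826559. Cldn3 shares 44 bases with the noncoding Wbscr25, which did not exceed 0.0772 FPKM in any library, and the sources used here do not say whether counting used strand.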

How the data were processed

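RNA-seq was deposited as 1 table per library, in which the authors gave FPKM with lower and upper confidence bounds, per the file headers. TopHat2 2.0.14, Bowtie2 2.2.3, Cufflinks 2.2.1, Cuffnorm and build mm10 are named in the submitters' processing notes; the scaling of library totals was not given in the sources used here. Records were joined by symbol and position, and 1 was added to the deposited starts. Two-sided tests were run in limma 3.58.1 (R 4.3.3), with a trend, on log2(FPKM + 1) of records that averaged 1 FPKM or more in the fit, with Benjamini-Hochberg adjustment at 0.05. The mutant fit used the 4 E16 libraries (2 residual degrees of freedom). The other fit took the E14 and E17 libraries, with additive terms for fraction and stage (1 residual degree of freedom). Variances were moderated over records, with 3.725 prior degrees of freedom in the mutant fit and 4.466 in the other. The steps were tested on simulated data.

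Fragments were inferred from the bounds, read as 2 standard errors, by squaring FPKM over 1 standard error. They are given for Cldn1, Cldn4, Cldn5, Cldn6, Cldn8 and Cldn23, whose bounds followed 1 common factor per library within 0.1 log2; Cldn3, Cldn7, Cldn10 and Cldn18 departed by 0.634 to 1.42, and for them the bounds are wider than counting error. Squared differences between libraries averaged 5.38 counting variances between the wild-type replicates and 7.04 between the mutant replicates, so each was kept as a sample. Bounds of 2 libraries that do not overlap thus need not exceed the spread between replicates. The members and gene lists were chosen with earlier results of these data known. All members were named. Of the other claudins and junction partners, those called with the 3 smallest p values were named. Most alike records had at least 5 FPKM on average, and predicted models and small RNAs were passed over. Alternatives covered the pseudocount, filter, scaling, replicates, a replicate block and limma-voom on inferred fragments.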

Additional observations from a re-analysis of the deposited data

Results flagged for a closer look

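Cldn4 was marked because its stage difference pointed in opposite directions in the 2 fractions with confidence bounds that did not overlap in either. On log2(FPKM + 1) it was -0.53 in TRAP and 0.22 in whole lung from E14 to E17. Each rests on 1 library per stage, and the difference between the fractions was not tested. The bounds of Cldn4 cover counting error only. Squared differences between E16 replicates averaged 5.38 and 7.04 counting variances, so bounds that do not overlap need not exceed the spread between replicates.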

How the results depend on the processing

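Values rest on 1 or 2 libraries a group, and Cldn1, Cldn8 and Cldn23 on few fragments. Without mutant replicate 1, 1 member was lower in the mutant (Cldn5), so the count ran from 0 to 1 over left-out libraries, and the count of higher members from 6 to 7. With a filter of 5 FPKM 1 member was lower in TRAP, since Cldn1 was not tested. Between stages limma-voom and the fit with no filter each called 0 higher members (4 and 4 at an unadjusted p under 0.05). Over all records they called 1018 and 49 higher. Limma-voom weighs Cldn3, Cldn7, Cldn10 and Cldn18 by fragments that departed from the common factor, and gave Cldn18 in the mutant as -0.015.

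Reversed directions were, from E14 to E17 in whole lung alone, Cldn4 (0.22) and Cldn6 (0.041), against -0.53 and -0.53 in TRAP alone and -0.16 and -0.24 in the joint fit. Relative to pan-epithelial genes, a scale added after seeing the data, Cldn3 (-0.17) and Cldn6 (-0.27) in the mutant turned among the members called. By little, Cldn7 (-0.074) in the mutant and Cldn5 (-0.080) and Cldn7 (-0.057) between stages turned too. So did 3 that were not called, Cldn18 in the mutant (-0.44), Cldn10 in TRAP (-0.67) and Cldn1 between stages (-0.12). Between stages Cldn5, Cldn7 and Cldn1 were lower on this scale in whole lung only, and it is not a check on Cldn5 and Cldn1, which were lower in TRAP. The cause was not tested. With the replicate number as a block the mutant fit called 7 members higher and 0 lower and changed no member's call; same-numbered libraries shared only a number (correlation of deviations 0.00721 across records).

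Over all records the mutant fit called 2063 higher and 1692 lower, 1749 and 2336 with centring, 2709 and 1260 when rescaled without short records, 1326 and 882 without wild-type replicate 1, and 1166 and 722 without wild-type replicate 2. TRAP gave 2910 higher and 2105 lower, 1783 higher by limma-voom and 1267 lower with a filter of 5 FPKM. Stages gave 1172 higher and 783 lower, 49 and 3 with no filter, and 1263 and 1539 when rescaled.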
